A study of Mus musculus with 6 samples.

Results

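Heat shock proteins are the molecular chaperones that hold, fold and refold other proteins, and cochaperones are the proteins that set where and how fast they work. The set described here holds the protein-coding mouse genes named as HSP70, HSP90, HSP110, HSP60, HSP10, small heat shock protein, J protein (Dnaja, Dnajb, Dnajc), BAG or heat shock factor genes, chosen by symbol and not by any measured value, with the proteoglycan gene Hspg2 left out. It came to 87 of the 57180 genes in the tables, and 78 of the 87 had enough reads to be tested. RNA was from kidneys of male wild-type C57BL/6J mice that were bought at 7 weeks of age. In the vehicle group, 3 mice received deionized water, and in the nanoplastic group 3 mice received cationic polystyrene nanoparticles at 200 mg/kg. Both were given orally each day for 6 weeks, and the labels give no other treatment or genetic change. Each library is labelled as its own mouse, so the spread between libraries is the spread between animals.

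HSP70 chaperones bind exposed hydrophobic stretches of unfolded proteins. J proteins bring the client and start ATP hydrolysis, and HSP110 and BAG proteins exchange the nucleotide so that the client is let go. HSP90 takes over partly folded clients, small heat shock proteins hold unfolded ones without ATP, and separate sets of chaperones serve the endoplasmic reticulum and the mitochondria. Unfolded protein in the cytosol releases the transcription factor HSF1, which binds arrays of inverted GAA units called heat shock elements; in the endoplasmic reticulum, ATF6 and its partners act through another motif, the endoplasmic reticulum stress element. In the kidney, the hypertonic medulla is known for high HSP70 and small heat shock protein levels.

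The libraries held 19408534 to 26292760 expected counts each, so 3 counts were worth 0.117 to 0.156 CPM, the count scaled to the size of the library. Proximal tubule markers summed to 14121 to 16638 CPM in the 6 libraries, as kidney tissue has. All tested erythrocyte, fibroblast, macrophage and lymphocyte markers had log2 fold changes below 0. Macrophage markers, 5 of 5 below 0, summed to 99.9, 95.5 and 90.3 CPM in vehicle and 82.3, 87.5 and 84.4 CPM in nanoplastic libraries. Collecting duct sums did not overlap either, at 264.7 to 271.7 CPM in vehicle and 278.6 to 328.2 CPM in nanoplastic libraries, with 3 of 6 markers below 0. Erythrocyte and fibroblast sums overlapped. Erythrocyte markers summed to 821, 859 and 578 CPM in vehicle and 625, 487 and 532 CPM in nanoplastic libraries. Of them, 5 of 5 were lower at an unadjusted p under 0.05 (4 of 5 without vehicle 2), where 3.61% of all genes were. Fibroblast markers summed to 249, 232 and 191 and 209.7, 162 and 154.7 CPM, with 4 of 4 below 0 and a median log2 fold change of -0.46. In addition, 3 libraries stood apart in ways that cross the groups. Vehicle 2 had the highest level of 12 of the 18 immediate early genes tested, against 18.3% of all genes. Fat cell markers summed to 27.7 CPM in vehicle 3 and 105.9 CPM in nanoplastic 1, against at most 0.65 CPM in the other 4. Inner medulla markers summed to 149.4 CPM in nanoplastic 1 against 54.5 to 115.9 CPM in the other 5. The part of these differences in the results was not tested. In whole tissue, fewer cells of a type and less RNA per cell cannot be told apart.

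No chaperone gene passed the test between the groups. The members with the lowest log2 fold changes were Hspa1a and Hspa1b, the HSP70 genes that heat and unfolded protein are known to induce, and for both the difference lay in 1 vehicle mouse. Expression of 50 of the 78 tested members was lower in nanoplastic kidneys in the fit, against 48.0% of all 18092 genes tested. When libraries were scaled by their totals alone, which moved all genes upwards (median 0.05), 39 of 78 members and 36.3% of all genes were lower. The median log2 fold change (nanoplastic against vehicle) was -0.04 over the members and 0.01 over all genes. After Benjamini-Hochberg adjustment of edgeR's quasi-likelihood test, 0 members were called, as were 0 genes in all (0% of those tested). DESeq2 and limma-voom also called 0 members, and the lowest adjusted p of a member with edgeR was 0.501. At an unadjusted p under 0.05, 11 members were lower and 1 was higher, where 3.61% and 3.80% of all genes were. With scaling by library totals alone that split was 7 lower and 3 higher, where 2.13% and 5.73% of all genes were. The medians of the cytosolic HSP70, other class C, BAG and heat shock factor groups, all close to 0, lay above 0 under that scaling, and those of the other groups kept their sign.

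These counts depended on vehicle 2. Without it, 1 member was lower and 1 higher at that level, against 1.90% and 2.18% of all genes, while 49 of 78 still had a log2 fold change below 0 (48.7% of all genes). Across the 6 libraries, 33 of the 78 members were highest in vehicle 2, against 18.3% of all genes. The groups did not overlap for 6 members that were lower in nanoplastic kidneys and for 4 that were higher, against 6.32% and 6.54% of all genes. Precision was good for most members: the 95% interval of 73 of the 78 excluded a 2-fold difference either way. The 5 whose intervals reached beyond a 2-fold difference were Hspa1a, Hspa1b, Hspa1l, Hsph1 and Dnajb7.

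**Figure D1:**
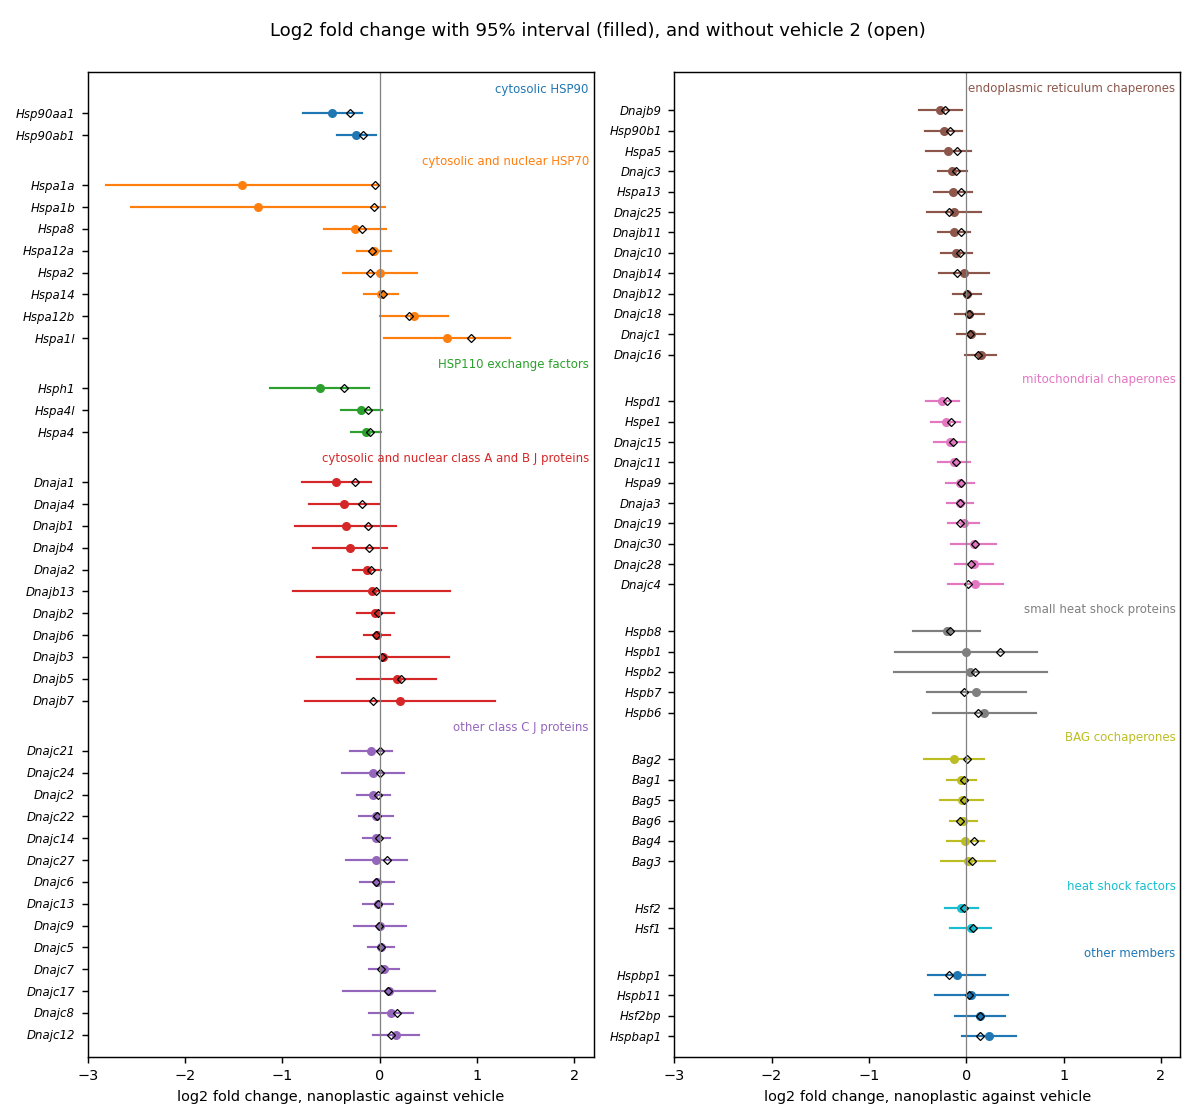
Log2 fold change of the 78 tested members (nanoplastic against vehicle, edgeR) by role, as filled points with 95% intervals, and as open diamonds without vehicle 2. Most points lie near 0, and Hspa1a at -1.41 and Hspa1b at -1.25 lie farthest to the left, while their diamonds lie at -0.05.

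Per length of transcript, 1 constitutive chaperone dominated the kidney. Hspa8, the HSC70 protein that does the routine folding work of the cytosol, averaged 781 (595 to 891) TPM (a measure scaled by library and transcript length; mean, with the lowest and highest library) and made up 25.9% to 32.4% of the members' summed CPM. Next in TPM came Hspa9, the mitochondrial HSP70, at 131 (124 to 142), and Hspa5 (BiP), the HSP70 of the endoplasmic reticulum, at 125 (116 to 135). Hsp90ab1 averaged 115 (102 to 131) TPM, Hspd1 113 (101 to 125) TPM and Hspe1 104 (95.7 to 113) TPM. From Hspa9 down to Hspe1, each gene's range over libraries overlapped that of the next. Within libraries, Hspa5 was above Hsp90ab1 in 6 of 6 and Hspd1 above Hspe1 in 6 of 6, while Hspa9 was above Hspa5 in 4 of 6 and Hsp90ab1 above Hspd1 in 4 of 6. Hsp90aa1, the inducible HSP90, averaged 91.2 (72.1 to 125) TPM. Dnajc12, a J protein that serves the aromatic amino acid hydroxylases, was next at 82.9 (66.7 to 107) TPM. In all, 32 tested members averaged 10 TPM or more.

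Summed over all 87 members, chaperone transcripts took 8992, 10929 and 9685 CPM in vehicle 1, 2 and 3 and 7693, 8553 and 9418 CPM in nanoplastic 1, 2 and 3. The highest sum was in vehicle 2 and the lowest in nanoplastic 1, and the groups overlapped through vehicle 1 and nanoplastic 3. The means were 9868 ± 982 and 8555 ± 862 CPM (SD, n = 3 each).

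The stress-inducible HSP70 genes Hspa1a and Hspa1b, near-silent in resting cells in textbook accounts and strongly switched on by HSF1, spread most between libraries. Hspa1a stood at 19.3, 199 and 50.5 CPM in vehicle 1, 2 and 3 and at 36.7, 21.8 and 42.4 CPM in nanoplastic 1, 2 and 3. Hspa1b stood at 33.8, 269 and 76.8 and at 77.4, 31.6 and 50.3 CPM in the same order. For both, vehicle 2 was by far the highest library, and the other vehicle libraries lay within or close to the range of the nanoplastic libraries, so the groups overlapped. Vehicle 2 held 5.70 times the mean of vehicle 1 and 3 for Hspa1a and 4.87 times for Hspa1b. The Hspa1a log2 fold change was -1.41 (SE 0.63), with an adjusted p of 0.67 in edgeR and a 95% interval of -2.81 to -0.02, and without vehicle 2 it was -0.05. For Hspa1b it was -1.25 (SE 0.59), with an adjusted p of 0.684 in edgeR, and -0.05 without vehicle 2.

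Reads cannot be split cleanly between these neighbours. Of the 100-base windows of the Hspa1a transcripts, 47.1% also occur in Hspa1b, and 49.9% of those of Hspa1b occur in Hspa1a. Their sum is safer: 53.1, 468 and 127 CPM in vehicle and 114, 53.4 and 92.7 CPM in nanoplastic kidneys. The highest library was 8.82 times the lowest, and both extremes were vehicle mice. A two-sided exact permutation test of the sum gave p = 0.5 over 20 splits, where 0.1 is the smallest p possible. In the RefSeq promoter table (build GRCm38.p6, from 250 bases before to 50 after the start of transcription), their promoters are nearly the same as well, with 296 of 300 bases identical. The last 140 bases before each start are shown because both genes carry the same pair of inverted heat shock units, in capitals, and the stretches differ at 1 base; each reads 5′ to 3′ on the strand of the gene.
Hspa1a (chr17:34972157-34972296, minus strand): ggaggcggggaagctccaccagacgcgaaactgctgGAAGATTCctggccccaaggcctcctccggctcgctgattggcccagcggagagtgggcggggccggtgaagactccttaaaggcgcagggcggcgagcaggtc
Hspa1b (chr17:34959239-34959378, minus strand): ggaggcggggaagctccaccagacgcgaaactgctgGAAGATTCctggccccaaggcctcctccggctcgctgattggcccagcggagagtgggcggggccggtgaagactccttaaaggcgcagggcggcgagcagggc

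Hspa1l, the third gene of the cluster and mainly a testis HSP70, was the only member higher at an unadjusted p under 0.05. It had 0.701, 1.04 and 0.594 CPM in the vehicle libraries and 1.298, 1.29 and 1.14 CPM in the nanoplastic libraries, from 14 to 32 counts each. All 3 nanoplastic libraries lay above all 3 vehicle libraries, at a level close to the lower end of what could be tested. Its log2 fold change was 0.69 (SE 0.29), with an edgeR adjusted p of 0.659, and 0.94 without vehicle 2. As for Hspa1a, 100-base windows are shared within the cluster, with 4.67% of Hspa1a windows in Hspa1l.

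Hspa8 itself had 2748, 3378 and 3086 CPM in vehicle 1, 2 and 3 and 1996, 2681 and 3053 CPM in nanoplastic 1, 2 and 3. Nanoplastic 1 was lowest and vehicle 2 highest, and nanoplastic 3 lay above vehicle 1. The log2 fold change was -0.25 (SE 0.14), with an adjusted p of 0.725 in edgeR. It rested in part on nanoplastic 1: without that library it was -0.10, without vehicle 3 as well -0.09, and without nanoplastic 3 -0.39. Over the 8 cytosolic and nuclear HSP70 genes, 4 were below 0 and 4 above. Hspa12b, a divergent HSP70 known from endothelium and named here after its values were seen, was higher in all 3 nanoplastic libraries than in any vehicle library, at 3.503, 3.25 and 3.69 against 4.70, 4.63 and 3.90 CPM.

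**Figure D2:**
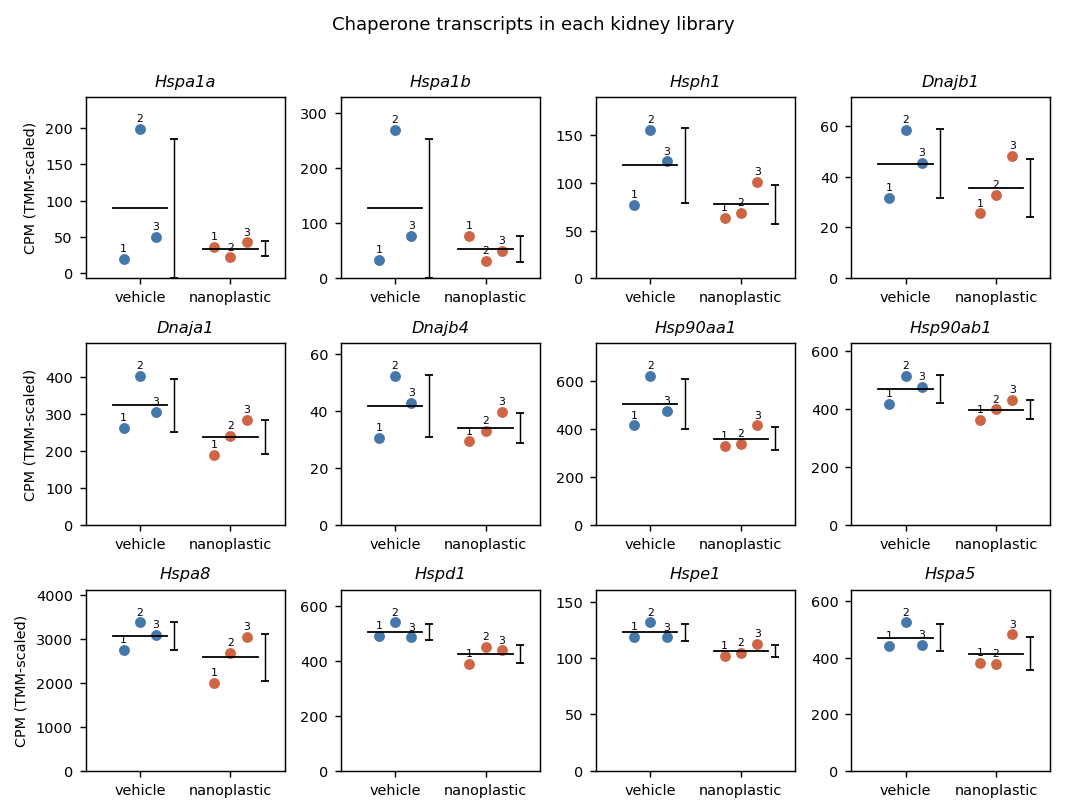
CPM of 12 members in each library, 1 panel a gene, with vehicle libraries in blue, nanoplastic libraries in orange and points numbered by replicate; horizontal lines are group means and bars are SD (n = 3). Vehicle 2 is far above the other 5 libraries for Hspa1a and Hspa1b, and the groups do not overlap for Hspd1, Hspe1 and Hsp90aa1.

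HSP110 proteins are large HSP70 relatives that exchange the nucleotide on HSP70 and help to dissolve aggregates. All 3 had log2 fold changes below 0 under each of the 3 scalings. Hsph1 (HSP105), the inducible one, stood at 76.7, 156 and 123 CPM in vehicle 1, 2 and 3 and at 63.1, 68.5 and 101 CPM in nanoplastic 1, 2 and 3. Vehicle 2 and vehicle 3 were the highest libraries, nanoplastic 1 was the lowest, and vehicle 1 lay inside the nanoplastic range. The log2 fold change of Hsph1 was -0.61 (SE 0.23), with an edgeR adjusted p of 0.611, and it was -0.37 without vehicle 2. Hspa4 averaged 164 ± 7.59 CPM in vehicle and 149 ± 10.2 CPM in nanoplastic kidneys (SD, n = 3 each). Hspa4l averaged 73.2 ± 9.04 CPM in vehicle and 64.0 ± 4.99 CPM in nanoplastic kidneys (SD, n = 3 each). Both overlapped between groups, with Hspa4 at -0.14 (SE 0.07) on the log2 scale and Hspa4l at -0.19 (SE 0.10). Without vehicle 2 Hspa4l was at -0.12, and without vehicle 1 at -0.29.

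HSP90 works as a dimer that matures kinases and steroid receptors. Hsp90aa1, its heat-inducible cytosolic form, had the lowest adjusted p of the set. It had 414, 619.8 and 475 CPM in vehicle 1, 2 and 3 and 328, 336 and 413 CPM in nanoplastic 1, 2 and 3. Every vehicle library was above every nanoplastic library, but vehicle 1 and nanoplastic 3 were nearly equal. Its log2 fold change was -0.49 (SE 0.14), with an adjusted p of 0.501 in edgeR. Without vehicle 2 it was -0.31, and Hsp90aa1 was then the member still lower at an unadjusted p under 0.05. Hsp90ab1, the constitutive form, had 419, 515 and 477 CPM in vehicle and 364, 399 and 432 CPM in nanoplastic libraries. The groups overlapped, since nanoplastic 3 exceeded vehicle 1, and the log2 fold change was -0.24 (SE 0.09). The paralogues shared no 100-base window, so their reads could be told apart.

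Among the cytosolic and nuclear class A and B J proteins, 8 of 11 tested members were below 0, with a median log2 fold change of -0.08. With library totals as scaling it was 7 of 11. Of all genes, 48.0% were below 0, and 36.3% with library totals. Dnaja1, a farnesylated partner of HSC70, had 263, 404 and 306 CPM in vehicle 1, 2 and 3 and 190.4, 241 and 284 CPM in nanoplastic 1, 2 and 3. Dnajb1 (HSP40), the main heat-inducible J protein, had 31.6, 58.5 and 45.4 and 25.6, 32.9 and 48.2 CPM in the same order. In both, vehicle 2 was highest and nanoplastic 1 lowest, and the groups overlapped. The log2 fold change of Dnaja1 was -0.44 (SE 0.16), with an edgeR adjusted p of 0.6, and -0.26 without vehicle 2. For Dnajb1 it was -0.35 (SE 0.23), and -0.12 without vehicle 2, -0.16 without nanoplastic 1, -0.55 without vehicle 1 and -0.62 without nanoplastic 3. Dnaja4 had 16.8, 25.8 and 19.6 and 13.3, 16.3 and 18.8 CPM, at -0.37 (SE 0.16), again with vehicle 2 highest. Without vehicle 2 it was at -0.18, and without nanoplastic 1 at -0.24. Dnajb7, at the low end of what could be tested, ran from 0.346 CPM in vehicle 2 to 1.04 CPM in nanoplastic 2, and its log2 fold change of 0.21 (SE 0.44) turned to -0.07 without vehicle 2. Dnaja2, named here after its values were seen, did not overlap between groups, at 112, 125 and 118 against 106, 110.02 and 109.9 CPM.

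As a set, though not in every gene, members known to respond to heat shifted from library to library, within the groups as well as between them. The heat-inducible list holds 14 members: Hspa1a, Hspa1b, Hsph1, Hspa8, Hspa4l, Hsp90aa1, Hsp90ab1, Dnaja1, Dnajb1, Dnajb4, Hspb1, Hspd1, Hspe1 and Bag3. Of these, Hspa8 and Hsp90ab1 are the constitutive forms of their families, and their place in the list is a matter of definition. Their median deviation from each gene's own mean, in log2 CPM, was -0.16 in vehicle 1, 0.53 in vehicle 2 and 0.16 in vehicle 3. In nanoplastic 1, 2 and 3 it was -0.25, -0.20 and -0.01. Vehicle 2 was highest, vehicle 3 next, and nanoplastic 3 lay above vehicle 1. Over the other 64 tested members that median lay between -0.03 and 0.03 in every library. Of the 14, 12 were highest in vehicle 2 and 9 were lowest in nanoplastic 1, against 18.3% and 19.4% of all genes. Hspb1 was highest in nanoplastic 1 and Bag3 in nanoplastic 3.

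Their median log2 fold change was -0.28, with 13 below 0 (12 with either other scaling) and 7 lower at an unadjusted p under 0.05. Without vehicle 2 the median was -0.14, with 12 below 0 and 1 of them at that p, and without vehicle 3 and nanoplastic 1 it was -0.21. The 64 others had a median of -0.03, with 37 below 0, 4 lower and 1 higher at that p. Of all genes, 48.0% were below 0, 3.61% were lower and 3.80% higher at that p, and 18.3% were highest in vehicle 2. Without vehicle 2, 48.7% of all genes were below 0, and 1.90% were lower and 2.18% higher at that p. With library totals as scaling, 36.3% of all genes were below 0. Without Hspa8 and Hsp90ab1, a choice made after seeing the data, the 12 left had a median of -0.33, with 11 below 0, 6 lower at that p and 10 highest in vehicle 2, and a median of -0.12 without vehicle 2. Because the list was drawn up with earlier results of these data known, these counts are a description.

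**Figure D3:**
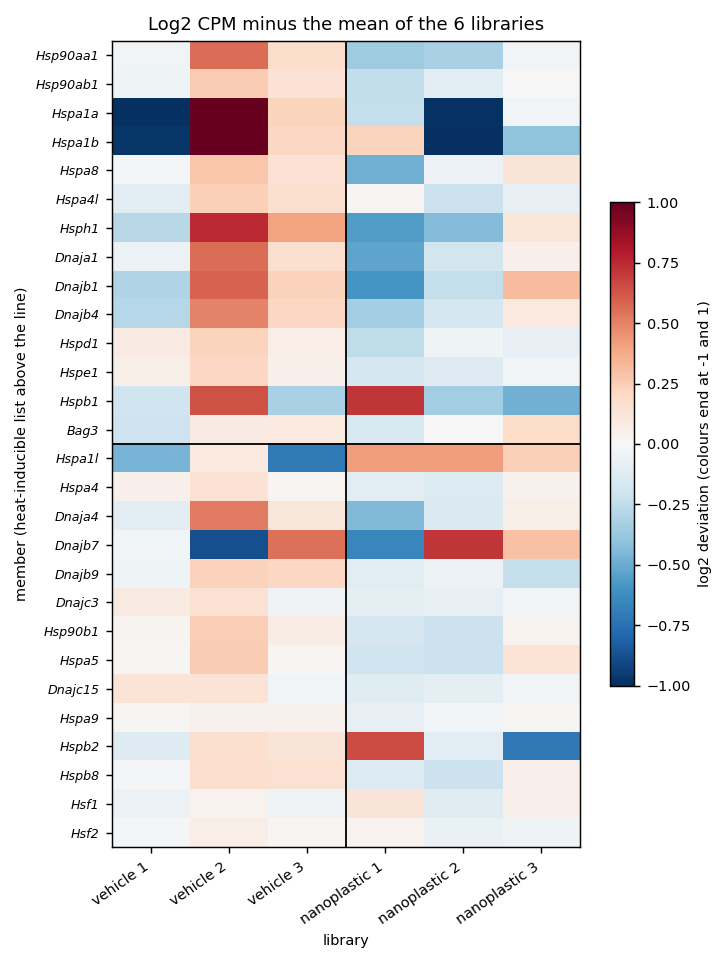
Deviation of each member named by rule, and of Dnajb4, from its mean over the 6 libraries (log2 CPM), by library. Red is above and blue below the mean, colours end at -1 and 1, and the 14 heat-inducible members are above the line. The vehicle 2 column is red for all 14, and the columns of vehicle 1, nanoplastic 1 and nanoplastic 2 are blue for most, with Hspb1 high in nanoplastic 1 as well.

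In 6 members, vehicle 2 reached at least 1.5 times the mean of vehicle 1 and 3, against 2.71% of all genes. These were Hspa1a, Hspa1b, Hspb1 (1.86 times), Hspa1l (1.61), Hsph1 (1.56) and Dnajb1 (1.52). Among 18 tested immediate early genes, transcription factors and regulators that cells switch on quickly after a stimulus, 12 passed the same ratio in vehicle 2. Jun had 16.9, 62.0 and 26.01 CPM in vehicle 1, 2 and 3 and 17.4, 17.1 and 18.3 CPM in the nanoplastic libraries. Egr1 had 4.05, 15.6 and 3.10 and 6.45, 1.96 and 1.82 CPM. The heat-inducible and the immediate early genes were thus mostly highest in the same vehicle mouse, and the part of this in the group differences was not tested.

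**Figure D4:**
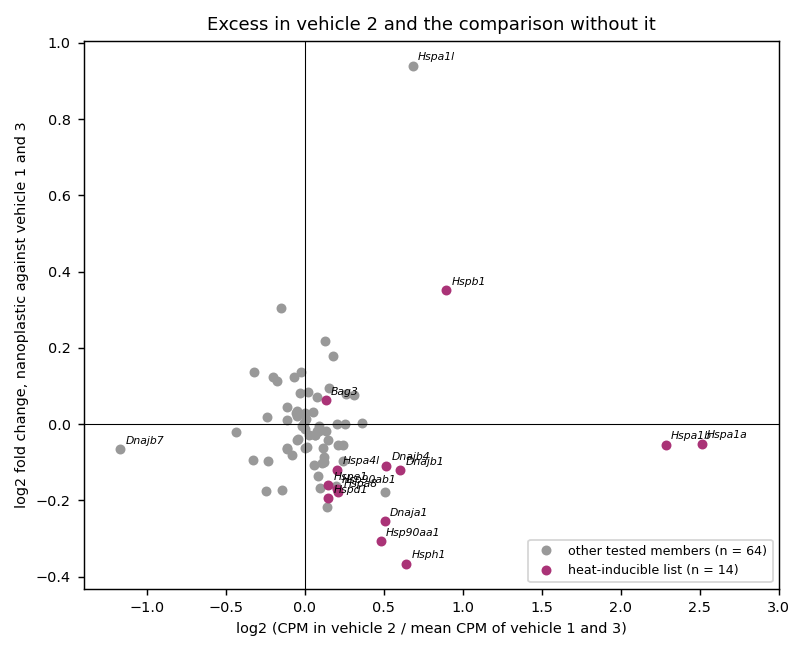
Each point is a tested member, 14 heat-inducible in purple and 64 others in grey. The horizontal axis is the log2 ratio of vehicle 2 to the mean of vehicle 1 and 3 (CPM), and the vertical axis is the log2 fold change without vehicle 2. Hspa1a and Hspa1b lie far to the right and near 0 in height, Hsph1 lies lowest at -0.37, and Hspa1l lies highest at 0.94.

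Over the 6 libraries, the members whose log2 CPM ran most like that of Hsph1 were Dnajb4 (Pearson's r 0.9747), Hsp90ab1 (0.972) and Hsp90aa1 (0.957). Outside the set, the nearest were Hacd2 (0.993), the unnamed gene ENSMUSG00000120945 (0.989), P4ha1 (0.989), Usp33 (0.989) and Ndufaf4 (0.989). With 6 libraries that share their group differences and depth, such values describe these libraries and carry no test. Dnajb4, a J protein of muscle and other tissues named here after its values were seen, had 30.5, 52.4 and 42.8 CPM in vehicle and 29.3, 32.9 and 39.8 CPM in nanoplastic libraries.

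The promoter table held windows for 70 of the 87 members and 63 of the 78 tested. The motif of a pair of inverted heat shock units was GAANNTTC or TTCNNGAA, where N is any base and both strands were searched. A strict element of 3 units, the pair extended by NN and a further GAA or TTC in the opposite sense, was in 4 of the 63 tested members (6.35%), Hspd1, Hspe1, Hsph1 and Dnajb6, and in 179 of 27025 genes (0.662%). The pair alone was in 15 of 63 (23.8%) against 17.0% of all genes; each strict match also holds the pair. The 3 strict stretches are shown with the matched bases in capitals, each 5′ to 3′ on the strand of the gene.
Hspe1 (chr1:55088053-55088082, plus strand): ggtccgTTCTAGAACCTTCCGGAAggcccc
Hsph1 (chr5:149636280-149636308, minus strand): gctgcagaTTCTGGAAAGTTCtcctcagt
Dnajb6 (chr5:29735828-29735897, plus strand): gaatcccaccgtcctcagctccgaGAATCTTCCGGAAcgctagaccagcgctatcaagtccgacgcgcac

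Hspe1 and Hspd1 lie head to head and share 285 bases of their windows, so the Hspe1 line holds the element of both genes. The Hspe1 line runs from 95 to 66 bases before the start, and the Hsph1 line from base 8 to base 36 of the transcript. Of the 4 genes, Hspd1 and Hspe1, which share their element, and Hsph1 were lower at an unadjusted p under 0.05, where 3.61% of all genes were. Without vehicle 2 none of them was at that p. Dnajb6, a J protein that keeps polyglutamine proteins soluble, had 80.9, 80.0 and 84.5 CPM in vehicle and 77.4, 82.0 and 81.6 CPM in nanoplastic libraries, which overlapped. A match is a run of letters and not a shown binding site.

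Mitochondrial chaperones had a median log2 fold change of -0.06, and Hspd1 and Hspe1 had the lowest values among them. Hspd1 (HSP60) and Hspe1 (HSP10) form the folding chamber of the mitochondrial matrix. Hspd1 had 489.9, 539.8 and 485 CPM in vehicle 1, 2 and 3 and 389, 450.5 and 438 CPM in nanoplastic 1, 2 and 3. Hspe1 had 119, 132 and 118 and 102, 105 and 112 CPM in the same order. In both genes all vehicle libraries lay above all nanoplastic libraries, and nanoplastic 1 was lowest. Vehicle 2 was highest in both, at 1.11 times the mean of vehicle 1 and 3. The log2 fold change of Hspd1 was -0.25 (SE 0.08), with an edgeR adjusted p of 0.541, and -0.19 without vehicle 2. For Hspe1 it was -0.21 (SE 0.07), with an edgeR adjusted p of 0.544, and -0.16 without vehicle 2.

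Hspa9 (mortalin), the HSP70 that pulls proteins into the matrix, had 689, 705 and 706 CPM in vehicle and 646, 672 and 690.0 CPM in nanoplastic libraries. The groups overlapped at a log2 fold change of -0.06 (SE 0.06), whose 95% interval of -0.21 to 0.08 excluded a 2-fold difference. Dnajc15, a J protein of the import machinery of the inner membrane, had 44.9, 45.0 and 40.1 and 37.5, 38.3 and 40.1 CPM, with vehicle 3 and nanoplastic 3 level and the log2 fold change at -0.17 (SE 0.07). Dnaja3 (TID1), the J partner of Hspa9, was named here after its values were seen, at 131, 132 and 132 against 121, 126 and 131 CPM. It counts among the members whose groups did not overlap, but vehicle 1 and nanoplastic 3 differed by less than 1 count. Of the 10 mitochondrial members, 7 were below 0, 3 were lower at an unadjusted p under 0.05 (0 without vehicle 2), and 7 were lowest in nanoplastic 1. Of all genes, 48.0% were below 0, 3.61% were lower at that p and 19.4% were lowest in nanoplastic 1. The median log2 fold change of the 10 members, -0.06, was the same without vehicle 2 and was -0.03 without vehicle 3 and nanoplastic 1. The part of the fat cell and inner medulla transcripts of nanoplastic 1 in these values was not tested.

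Endoplasmic reticulum chaperones had a median log2 fold change of -0.13, and -0.06 without vehicle 2. Hspa5 (BiP), which binds nascent secretory proteins and holds the stress sensors inactive, had 442, 525 and 444 CPM in vehicle 1, 2 and 3 and 382, 379 and 482 CPM in nanoplastic 1, 2 and 3. Hsp90b1 (GRP94), the HSP90 of this compartment, had 370.1, 431 and 383 and 323, 314 and 372 CPM. Both had vehicle 2 highest, and nanoplastic 3 reached into the vehicle range, so the groups overlapped. For Hspa5 the log2 fold change was -0.18 (SE 0.10), with an edgeR adjusted p of 0.725, and it was -0.10 without vehicle 2 and -0.31 without nanoplastic 3. For Hsp90b1 it was -0.23 (SE 0.08), with an edgeR adjusted p of 0.6. Dnajb9 (ERdj4), which represses the sensor IRE1 and helps to degrade misfolded proteins, had 18.3, 22.0 and 21.7 and 17.4, 18.1 and 15.9 CPM. Its groups did not overlap, by a narrow margin between vehicle 1 and nanoplastic 2, and the log2 fold change was -0.27 (SE 0.10). Dnajc3 (p58IPK), an inhibitor of the kinase PERK, had 238, 248 and 219 and 208, 211 and 219 CPM, at -0.14 (SE 0.07). Of the 13 members, 9 were below 0 and 2 were lower at an unadjusted p under 0.05 (0 without vehicle 2). Over all genes these shares were 48.0% and 3.61%. Dnajc16, an endoplasmic reticulum J protein named here after its values were seen, was higher in each nanoplastic library, at 31.3, 29.9 and 31.3 against 32.7, 33.9 and 35.8 CPM.

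The endoplasmic reticulum stress element (CCAAT, a spacer of 9 bases of any kind, then CCACG, with both strands searched) was in the windows of Hspa5, Hsp90b1 and Dnajc3, 3 of 63 tested members (4.76%), and of 37 of 27025 genes (0.137%). Their stretches are shown because these 3 genes serve the same compartment; matches are in capitals, and Hsp90b1 has a match on each strand.
Hspa5 (chr2:34772000-34772089, plus strand): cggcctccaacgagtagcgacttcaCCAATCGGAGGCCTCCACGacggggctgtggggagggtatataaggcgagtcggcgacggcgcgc
Hsp90b1 (chr10:86705525-86705664, minus strand): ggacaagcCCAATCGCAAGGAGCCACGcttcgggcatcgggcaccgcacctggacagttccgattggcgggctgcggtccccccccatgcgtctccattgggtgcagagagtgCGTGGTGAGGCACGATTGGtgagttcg
Dnajc3 (chr14:118937802-118937901, plus strand): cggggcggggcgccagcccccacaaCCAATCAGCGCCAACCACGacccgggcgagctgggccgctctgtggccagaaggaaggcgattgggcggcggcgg

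Of the 5 small heat shock protein genes tested, 2 had a log2 fold change below 0. Their median was 0.04, and -0.15 without vehicle 3 and nanoplastic 1. Hspb1 (HSP25), an actin-linked holdase of medulla and vessels, had 5.18, 9.22 and 4.75 CPM in vehicle 1, 2 and 3 and 9.77, 4.67 and 4.26 CPM in nanoplastic 1, 2 and 3. Vehicle 2 and nanoplastic 1, 1 library of each group, stood well above the other 4, and the 95% interval of its log2 fold change was -0.73 to 0.73. Without vehicle 2 the log2 fold change was 0.35. Cryab, the alpha-crystallin of the same family that the medulla expresses strongly, was not in the set; it had 24.5, 27.0 and 20.6 CPM in vehicle and 82.4, 23.1 and 16.3 CPM in nanoplastic libraries, also with nanoplastic 1 highest. Inner medulla markers summed to 83.7, 74.0 and 54.5 CPM in vehicle and 149, 116 and 57.9 CPM in nanoplastic libraries, and their part in the Hspb1 level was not tested. Hspb8, which hands clients to BAG3 for autophagy, had 4.01, 4.55 and 4.498 and 3.69, 3.502 and 4.21 CPM. It overlapped between groups at -0.20 (SE 0.16). Hspb2, a muscle small heat shock protein, ran from 0.519 CPM in nanoplastic 3 to 1.34 CPM in nanoplastic 1.

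BAG proteins and the heat shock factors showed no difference larger than the spread between mice. Bag3, the HSF1 target that links HSP70 to autophagy, had 9.65, 11.8 and 11.9 CPM in vehicle and 10.1, 11.1 and 12.7 CPM in nanoplastic libraries, with vehicle 1 lowest and nanoplastic 3 highest. Its log2 fold change was 0.02 (SE 0.12). Hsf1, the master regulator of the heat shock response, had 13.9, 14.9 and 14.2 and 15.9, 13.4 and 15.1 CPM. Hsf2, its developmental relative, had 20.004, 21.1 and 20.4 and 20.6, 19.2 and 19.5 CPM. Log2 fold changes were 0.04 (SE 0.10) for Hsf1 and -0.05 (SE 0.08) for Hsf2, with overlapping groups and 95% intervals of -0.17 to 0.26 and -0.22 to 0.12. Of 6 BAG genes, 5 were below 0, at a median of -0.04, against 48.0% of all genes. Without vehicle 2 it was 3 of 6 (48.7% of all genes), and with library totals as scaling 3 of 6 (36.3%).

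Of the 14 other class C J proteins tested, among them clathrin-uncoating and synaptic vesicle cochaperones, 8 were below 0, none of them at an unadjusted p under 0.05. Of all genes, 48.0% were below 0 and 3.61% were lower at that p. Library totals as scaling put 3 of the 14 below 0, against 36.3% of all genes. The 4 remaining members, Hspbp1, Hspbap1, Hspb11 and Hsf2bp, had a median of 0.10. Hspbap1, a partner of Hspb1 named here after its values were seen, was higher in each nanoplastic library, at 7.24, 5.93 and 7.60 against 8.23, 8.004 and 8.21 CPM. The 9 untested members were Dnajb8, Hsfy2, Dnajc5b, Dnajc5g and Hspb3, with no count in any library, which allows up to 0.117 to 0.156 CPM, and Hsf3, Hsf4, Hsf5 and Hspb9, at 0.487 CPM or less. Over all 78, 15 members had a log2 fold change of -0.2 or lower and 4 of 0.2 or higher.

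Partners of the chaperones outside the set also had medians below 0, where 48.0% of all genes were below 0 (48.7% without vehicle 2). Of 20 HSP70 and HSP90 partners, 17 were below 0 at a median of -0.13, with 6 lower at an unadjusted p under 0.05, where 3.61% of all genes were. Without vehicle 2, the highest library for 11 of the 20, 0 were at that p and the median was -0.10. Ahsa2, an activator of the HSP90 ATPase, had 37.6, 58.1 and 46.6 CPM in vehicle 1, 2 and 3 and 30.8, 36.7 and 38.2 CPM in nanoplastic 1, 2 and 3, and a log2 fold change of -0.43 (SE 0.14), or -0.26 without vehicle 2. Ptges3 (p23), which stabilises closed HSP90, was at -0.19 (SE 0.07). Of 15 organelle chaperone partners, 14 were below 0 at a median of -0.13, with 3 lower at that p. Without vehicle 2 the median was -0.07 and 1 was at that p. Serpinh1 (HSP47), the collagen chaperone, had 79.2, 98.9 and 83.2 and 64.0, 68.2 and 77.0 CPM, at -0.32 (SE 0.10). Fibroblasts make collagen, and the fibroblast markers given above had a median of -0.46; their part in the Serpinh1 level was not tested. Hyou1, the HSP110 of the endoplasmic reticulum, was at -0.22 (SE 0.08). Of 14 subunits of the TRiC chaperonin and prefoldin, which fold actin and tubulin, 12 were below 0 at a median of -0.08 and 0 were at that p. Without vehicle 2 it was 10 of 14, at a median of -0.04. Cct7 was at -0.16 (SE 0.08) and Cct5 at -0.14 (SE 0.07), both -0.08 without vehicle 2. Library totals as scaling gave 15 of 20, 13 of 15 and 8 of 14 below 0, against 36.3% of all genes. The medians of the 3 lists were then -0.09, -0.09 and -0.04. None of these partner genes passed the adjusted test.

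The cold-inducible RNA-binding proteins, whose transcripts are known to accumulate on mild cooling, both had log2 fold changes above 0 under each of the 3 scalings. Rbm3 had 66.2, 53.4 and 62.8 CPM in vehicle 1, 2 and 3 and 81.3, 79.8 and 72.9 CPM in nanoplastic 1, 2 and 3. Every nanoplastic library lay above every vehicle library, and vehicle 2 was lowest. Its log2 fold change was 0.36 (SE 0.09), with an edgeR adjusted p of 0.394. Cirbp had 19.3, 14.5 and 15.7 and 27.7, 22.2 and 17.1 CPM, overlapping through vehicle 1 and nanoplastic 3, at 0.44 (SE 0.16), or 0.22 without vehicle 3 and nanoplastic 1.

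**Figure D5:**
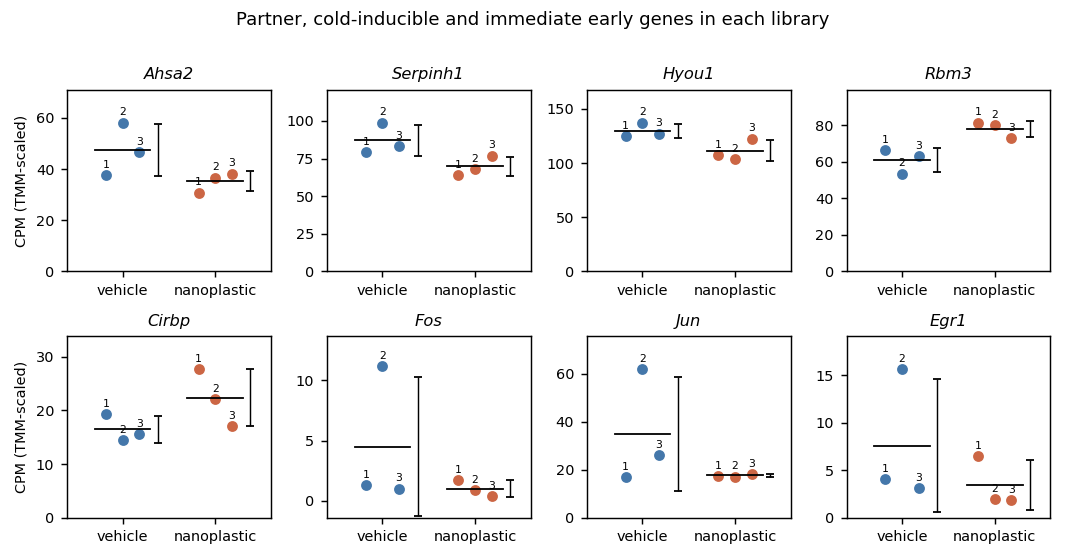
CPM of 8 genes outside the set in each library, with vehicle libraries in blue, nanoplastic libraries in orange and points numbered by replicate; horizontal lines are group means and bars are SD (n = 3). Fos, Jun and Egr1 are far above the other 5 libraries in vehicle 2, and Rbm3 is lowest there.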

How the data were processed

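RNA-seq of 6 kidneys, 3 per group, was used as deposited gene tables. The submitters' processing notes list RSEM 1.3.3, STAR 2.7.9a, Trim Galore 0.6.6, FastQC and the build GRCm39. Neither the annotation release nor the strand setting is given in the sources used here. Antisense reads cannot be told apart. The authors' deposited expected counts, the RSEM estimates of reads per gene, were rounded to whole numbers and tested. The authors' deposited TPM values gave levels between genes, and their deposited FPKM values were not used. Of 57180 gene IDs, 51933 were named by gene ID and 762 by transcript ID from GENCODE vM21 (names only, as its build differs), and 4485 kept their ID. 14 pseudogenes matching the symbol pattern were left out.

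The 18092 genes that filterByExpr kept went into 1 quasi-likelihood fit of all 6 libraries in edgeR 4.0.16 (glmQLFit with legacy=FALSE, TMM factors, R 4.3.3), and Benjamini-Hochberg adjustment ran over all of them. The biological coefficient of variation was 0.105, and the median half-width of the 95% interval was 0.28 on the log2 scale. CPM values use TMM library sizes, log2 CPM a prior count of 2, and SE is the fold change over the square root of F. Depth limits apply to counting error only. The script was tested on simulated counts. Replicate numbers were checked for pairing: deviations of same-numbered libraries correlated at 0.04, -0.02 and 0.10, so they were not used as pairs.

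Alternatives were DESeq2 1.42.0, limma-voom 3.58.1, library totals as scaling, the 7SL RNA genes left out, no count filter, a replicate block, TPM with a pseudocount of 0.5, each library left out, and vehicle 3 with nanoplastic 1 left out. An older edgeR dispersion setting was added after seeing the data. The members and lists were chosen with earlier results of these data known. Genes named by rule are a fixed set of 22 members, each member at an unadjusted p under 0.05 and the 5 members with the widest range over libraries. Outside the set they are up to 2 of the genes with the lowest p in each other list, Fos, Jun and Egr1. Hspa12b, Dnaja2, Dnaja3, Dnajb4, Dnajc16 and Hspbap1 were added after their values were seen. Dnajc12 is given for its TPM level and Dnajb6 for its promoter element. Promoter sequences are from RefSeq on GRCm38.p6, and no sequence is printed for members outside that table (Hsp90aa1, Hsp90ab1, Hspa8 and Hspa9 among them).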

Additional observations from a re-analysis of the deposited data

How the results depend on the processing

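In the 14 alternatives with a test, 0 members passed the adjusted threshold, with the lowest adjusted p of a member between 0.168 (DESeq2, Hspd1) and 1.0 (edgeR without vehicle 2). Of all genes, edgeR called 0, DESeq2 called 55, and edgeR called 30 with vehicle 3 and nanoplastic 1 left out and 0 to 10 with each library left out. The 12 members at an unadjusted p under 0.05 became 2 to 15 with each library left out, with 2 without vehicle 2 and 5 without nanoplastic 2. Other counts were 8 (DESeq2), 16 (no count filter), 10 (library totals) and 11 (limma-voom, and vehicle 3 with nanoplastic 1 left out). The replicate block gave 11 members at that p and 0 called; not every library correlated best with its own number (vehicle 2, nanoplastic 1 and nanoplastic 2 did not). The members' median moved by less than its spread over the vehicle mice throughout. Of the 27 members named by rule, 21 kept their direction and 6 did not, each with a main value near 0 or few counts. Hspa9 was at 0.011 in TPM. Hspb1 was at 0.050 with library totals, 0.0011 without the 7SL genes, and -0.50 to 0.35 with each library left out. On leaving each library out, Bag3 ran from -0.080 to 0.10, Hsf1 from -0.011 to 0.11, Dnajb7 from -0.15 to 0.58 and Hspb2 from -0.40 to 0.27. With vehicle 3 and nanoplastic 1 left out, Hsf1 was at -0.017 and Hspb2 at -0.36. Hspb2 was at -0.0009 in DESeq2 and -0.056 in limma-voom. The cause was not tested for any of these. In 25 of 78 tested members at least 1 library had an estimated count that was not whole. Leaving out a library leaves 2 in its group.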

Other observations

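Other lists of the stress and medullary programmes gave these values. Of 13 circadian clock genes, 5 had a log2 fold change below 0, at a median of 0.18. Among these 13, 3 were higher at an unadjusted p under 0.05, where 3.80% of all genes were. Without vehicle 2 the median was 0.10 and 1 was at that p. Ciart was at 1.302 (SE 0.36) and Cry2 at 0.39 (SE 0.15). Of 8 tested proteotoxic and ubiquitin stress genes, 7 were below 0, at a median of -0.06, but without vehicle 2 it was 5 of 8 at a median of -0.0035. Library totals as scaling gave 4 of 8, against 36.3% of all genes. Of these genes, Hmox1, the heme oxygenase, was at -0.35 (SE 0.10) and Asns, an ATF4 target, at -0.48 (SE 0.21), or -0.28 without vehicle 2 and -0.80 without vehicle 3 and nanoplastic 1. Of 6 medullary osmolyte genes, 1 was below 0, against 48.0% of all genes. The median was 0.27, and -0.18 without vehicle 3 and nanoplastic 1. In this list 1 gene was higher at an unadjusted p under 0.05, where 3.80% of all genes were. For 1 gene every nanoplastic library lay above every vehicle library (6.54% of all genes). Akr1b3, the aldose reductase that makes sorbitol, overlapped between groups and was not that gene. It had 69.4, 77.1 and 53.3 CPM in vehicle and 260.0, 55.4 and 48.7 CPM in nanoplastic libraries. Nanoplastic 1, its highest library, was also the highest for Cryab and Hspb1. Immediate early genes had a median of -0.12, and of 0.09 without vehicle 2. At an unadjusted p under 0.05, 4 of 18 were lower, where 3.61% of all genes were. No gene of these lists passed the adjusted test in edgeR.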
